A study of Homo sapiens with 26 samples.

Results

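The genes described here encode the subunits of integrins and laminins. They were chosen by gene symbol from a list of 35 names, 17 integrin alpha subunits, 8 integrin beta subunits and 10 laminin chains. Of these, 31 had a probe set among the 17687 genes of the table (16 alpha, 8 beta and 7 laminin), and ITGA1, LAMA3, LAMA5 and LAMB3 were not analysed here. RNA of 26 samples of 3 human lung cancer cell lines was measured on single-colour arrays, after cells were given either 12.8 µM Omomyc or the saline vehicle (PBS). Omomyc, a small protein derived from the dimerization domain of MYC, can pair with MAX and take up MYC sites on DNA. The lung adenocarcinoma line NCI-H1975 (H1975) had 5 Omomyc and 4 PBS arrays, the lung carcinoma line A549 had 3 Omomyc and 4 PBS arrays, and the lung carcinoma line NCI-H1299 (H1299) had 5 Omomyc and 5 PBS arrays. All cells were grown in serum-containing medium and dosed after a night on the plate, and the sources used here do not give the length of exposure. Each line stands for 1 tumour, and no group received another protein, so an effect of Omomyc cannot be told apart from one of added protein.

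Integrins are cell surface receptors, each made of an alpha and a beta subunit, that bind matrix proteins or counter-receptors outside the cell and the actin skeleton inside it. An alpha subunit reaches the surface only with a beta partner. ITGB1 joins many alpha subunits, which set the ligand: ITGA3 and ITGA6 bind laminins, ITGA2 and ITGA10 bind collagens, ITGA4 and ITGA5 bind fibronectin, and ITGA4 also the endothelial protein VCAM1. ITGAV joins several beta subunits to bind proteins with an RGD motif, and its pairs with ITGB6 and ITGB8 bind latent TGF-beta. ITGB4 joins ITGA6 in hemidesmosomes, the anchors of epithelia to laminin, and ITGB2 and ITGB7 belong mostly to leukocytes. Laminins are secreted trimers of an alpha, a beta and a gamma chain and form the frame of basement membranes.

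Levels below are deposited log2 values of 1 probe set a gene, given with the SD over the arrays of the group, whose numbers are those above. They can be set against each other between arrays, though less safely between the 3 sets of arrays described below, but not between genes. A change is the log2 difference of a limma fit on all 26 arrays with its standard error (SE) after ±, and a gene counts as called where its p, adjusted by Benjamini-Hochberg over all 17687 genes, is under 0.05. A transcript counted as above background where its group mean exceeded the highest mean of 23 background probe sets in that group. That limit lay between 6.43 and 6.935 in the 6 groups, so 47.4% to 50.2% of all genes exceeded it. The arrays fell into 3 sets of 9, 10 and 7 by their distribution of values, called runs here. No label names these runs, and A549 had no Omomyc array in run 3, so values with the run as a block and within runs stand beside the results. Run 1 of H1299 held only replicate 1 of each treatment, and run 2 of A549 only replicate 3 of each. In H1975 the only PBS array was replicate 1 in run 1 and replicate 4 in run 3, and Omomyc replicate 5 was the only Omomyc array of run 3. A change within these runs thus rests on single arrays.

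The epithelial markers of a carcinoma line were incomplete in H1975 and mostly absent in H1299. Of 6 epithelial markers, 5 were above background in H1975 (not CDH1), 6 in A549 and 2 in H1299 (KRT8 and KRT18), with Omomyc and in PBS alike. Their means summed to 74.0 with Omomyc and 73.6 in PBS in H1975, 80.6 with Omomyc and 80.1 in PBS in A549, and 41.7 with Omomyc and 42.6 in PBS in H1299. Such sums include markers below background, and opposite changes cancel in them. Of the leukocyte and endothelial markers, 0 of 6 and 0 of 4 were above background in any group. Of 6 mesenchymal or fibroblast markers, 3 were above background in H1975 with Omomyc and 2 in each other group. Their means summed to 41.7 with Omomyc and 43.8 in PBS in H1975, 39.2 with Omomyc and 38.8 in PBS in A549, and 43.8 with Omomyc and 43.1 in PBS in H1299. The extra marker in H1975 with Omomyc was PDGFRB, whose mean was lower than in PBS (6.46 against 6.87). It passed because the limit was lower too, at 6.43 with Omomyc and 6.935 in PBS. VIM was high in all lines, CDH2 was above background in A549 and H1299, and DCN and LUM, which mark fibroblasts, were below background in every group. The A549 markers AKR1B10 and AKR1C1 had group means of 16.73 to 17.10 in A549. AKR1B10 was at most 3.75 in the groups of the other lines, while AKR1C1 was above background in H1975 too, at 8.16 with Omomyc and 9.37 in PBS. In H1975 the epithelial keratin KRT8 was at 16.17 with Omomyc and at 16.73 in PBS, a change of -0.56 ± 0.19 (limma adjusted p = 0.0486). The other 5 epithelial markers were not called there, with changes of 0.91 for KRT7, 0.43 for EPCAM, 0.08 for KRT19, -0.20 for KRT18 and -0.20 for CDH1. The part of these markers in the results for H1975 was not tested.

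Promoter sequence is shown for the 2 members with the largest changes, ITGB8 and ITGA10, and for ITGA6, the only member whose window held CACGTG, the E-box word preferred by MYC and MAX. The windows are the 250 bases before the start site in the RefSeq promoter table of GRCh38.p14, on the strand of the gene, and 25 of the 35 members had an entry. ITGB8 lies at chr7:20330650-20330899 (plus strand), ITGA10 at chr1:145910051-145910300 (minus strand) and ITGA6 at chr2:172427086-172427335 (plus strand). Capitals mark the general E-box CANNTG, the GC box GGGCGG or CCGCCC, and CCAAT or ATTGG, each searched on both strands. The annotated ITGB8 gene begins upstream of its window.
ITGB8: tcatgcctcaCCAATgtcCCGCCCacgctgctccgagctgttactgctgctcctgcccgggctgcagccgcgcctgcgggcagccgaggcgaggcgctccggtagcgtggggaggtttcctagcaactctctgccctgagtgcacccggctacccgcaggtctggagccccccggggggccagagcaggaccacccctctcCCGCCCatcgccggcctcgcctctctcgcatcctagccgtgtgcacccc
ITGA10: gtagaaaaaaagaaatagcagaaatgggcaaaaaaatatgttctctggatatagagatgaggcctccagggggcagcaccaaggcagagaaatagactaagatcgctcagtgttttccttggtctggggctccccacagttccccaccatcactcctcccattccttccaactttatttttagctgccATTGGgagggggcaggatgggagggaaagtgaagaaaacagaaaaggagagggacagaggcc
ITGA6: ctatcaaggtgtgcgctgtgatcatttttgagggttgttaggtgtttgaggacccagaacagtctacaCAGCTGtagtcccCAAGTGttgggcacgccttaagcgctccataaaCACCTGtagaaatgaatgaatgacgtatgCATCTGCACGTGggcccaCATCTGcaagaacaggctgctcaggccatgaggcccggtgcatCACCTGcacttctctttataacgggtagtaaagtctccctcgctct
The ITGB8 window held 2 GC boxes and 1 CCAAT, the ITGA10 window 1 CCAAT, and neither held CANNTG. The ITGA6 window held 7 CANNTG words, 1 of them CACGTG. Over all 27305 promoter windows, 6.49% held CACGTG, 62.2% CANNTG, 42.3% the GC box and 33.0% CCAAT, against 1, 12, 13 and 3 of the 25 member windows. A match is a description of these letters and says nothing on binding.

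In PBS, transcripts for the same core of receptors were above background in the 3 lines, and a few pairs set them apart. Both subunits were above background for 9 of 22 measured pairs in H1975, 7 in A549 and 8 in H1299. ITGA2, ITGA3, ITGA5, ITGA6 and ITGAV with ITGB1, and ITGAV with ITGB5, were above background in every line. The ITGA6-ITGB4 pair was so in H1975 and A549 and not in H1299. ITGAV-ITGB3 and ITGAV-ITGB8 were so only in H1975 among the PBS groups, and ITGA4-ITGB1 and ITGA10-ITGB1 only in H1299. ITGAE, the partner of ITGB7, was above the limit in each line while ITGB7 was not, so the ITGAE-ITGB7 pair was counted in none. With the stricter rule that every array exceed its own highest background set, H1299 had 6 pairs, without those of ITGA2 (3 of 5 arrays) and ITGA5 (4 of 5 arrays). A transcript above background does not show a receptor at the surface, and in RNA of whole cultures fewer expressing cells and less RNA per cell cannot be told apart.

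**Figure D1:**
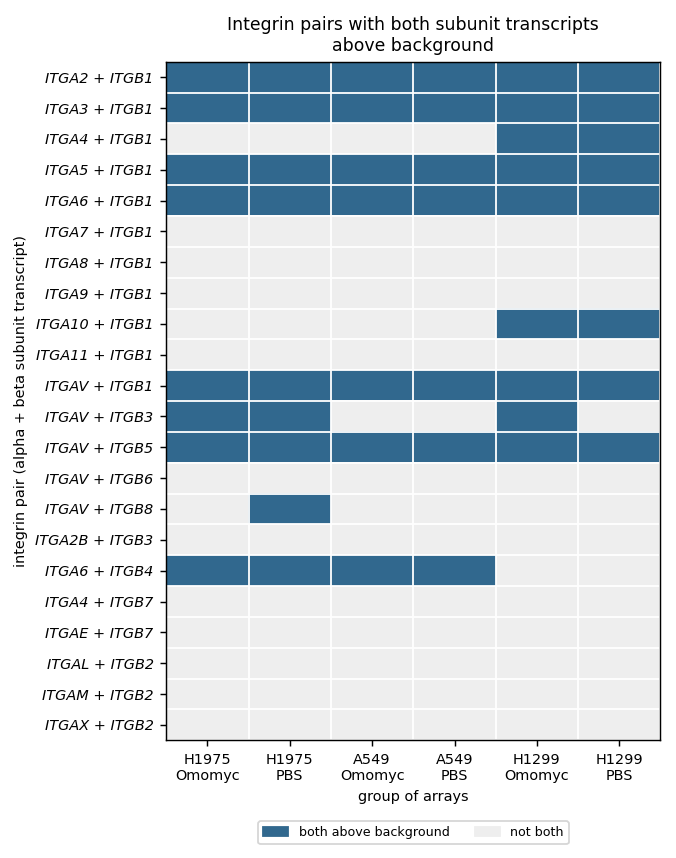
Integrin pairs (rows) whose alpha and beta transcripts were both above background in each group of arrays (columns, Omomyc left of PBS in each line). Filled cells mark both subunits above the highest background probe set. H1975 had 8 pairs with Omomyc and 9 in PBS, A549 had 7 in either, and H1299 had 9 with Omomyc and 8 in PBS.

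Among the beta subunits, ITGB1, the partner of most alpha subunits, was at 16.33 ± 0.17 in H1975 PBS arrays (SD, n = 4), 17.28 ± 0.04 in A549 (n = 4) and 16.09 ± 0.20 in H1299 (n = 5). It differed by -0.95 ± 0.16 for H1975 minus A549 (adjusted p = 2.03e-05). ITGB3, the vitronectin and fibrinogen receptor subunit, had 8.39, 8.94, 8.59 and 8.22 in H1975 PBS arrays. A549 PBS arrays had 4.58, 4.09, 4.00 and 4.02, and H1299 PBS arrays 7.21, 6.83, 7.03, 5.26 and 5.39. All H1975 arrays lay above all others, and the H1299 mean of 6.34 was below the limit. ITGB4 was at 9.61 ± 0.15 in H1975, 8.88 ± 0.25 in A549 and 5.36 ± 0.33 in H1299, below the limit in H1299 in each array. ITGB5, another partner of ITGAV, was at 10.01 ± 0.45 in H1975, 12.65 ± 0.31 in A549 and 9.58 ± 0.52 in H1299, so A549 stood highest and the H1975 and H1299 arrays overlapped. ITGB8 was at 8.60 ± 0.86 in H1975, 5.42 ± 0.53 in A549 and 3.21 ± 0.52 in H1299, and H1975 was the only line above background.

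Among the alpha subunits above background, the laminin receptors ITGA3 and ITGA6 were highest in H1299. ITGA6 was at 11.11 ± 0.52 in H1975, 11.32 ± 0.25 in A549 and 14.20 ± 0.28 in H1299, and ITGA3 at 13.20 ± 0.31, 13.16 ± 0.21 and 14.76 ± 0.27 in the same order of lines. The fibronectin receptor ITGA5 ran the other way, at 11.40 ± 0.41 in H1975, 9.22 ± 0.49 in A549 and 7.88 ± 0.78 in H1299. ITGAV was at 9.61 ± 0.25 in H1975, 11.52 ± 0.22 in A549 and 9.16 ± 0.26 in H1299. ITGA2, of the collagen receptor, was at 7.84 ± 0.57, 9.41 ± 0.12 and 6.97 ± 0.29. For both ITGAV and ITGA2 the A549 arrays lay above those of the other lines without overlap. ITGAE was at 9.99 ± 0.23 in H1975, 9.53 ± 0.38 in A549 and 6.90 ± 0.58 in H1299, where 1 of 5 arrays exceeded its own highest background set. ITGA4 was at 3.79 ± 0.36 in H1975 and 3.12 ± 0.20 in A549, against 9.46 ± 0.17 in H1299. ITGA10 was at 4.12 ± 0.34 in H1975 and 4.00 ± 0.07 in A549, against 7.83 ± 0.44 in H1299. Neither subunit had an array above background in H1975 or A549.

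The laminin chains differed most in LAMB1, the beta chain found in many basement membranes. H1975 PBS arrays had 4.11, 4.66, 5.36 and 3.99, below background. A549 PBS arrays had 14.23, 14.24, 13.42 and 13.67, and H1299 PBS arrays 12.15, 11.68, 11.33, 11.39 and 11.20. The 3 lines did not overlap. LAMA2, the alpha chain of muscle and nerve laminin, was at 3.89 ± 0.41 in H1975 and 3.73 ± 0.26 in A549, both below background, against 8.68 ± 0.27 in H1299. LAMC1, the common gamma chain, was at 13.45 ± 0.28 in H1975, 13.63 ± 0.09 in A549 and 13.37 ± 0.15 in H1299 and was called in none of the comparisons between lines. LAMB2 was at 10.26 ± 0.61 in H1975, 8.31 ± 0.74 in A549 and 8.22 ± 0.75 in H1299. Of 13 known trimers, 8 had all chains measured, and the complete set was above background for 2 of them in H1299 (LAMA2-LAMB1-LAMC1 and LAMA2-LAMB2-LAMC1) and for 0 in H1975 and A549, where no measured alpha chain was above background.

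In all, 17 of the 31 measured members were above background in at least 1 of the 6 groups and 10 of them in every group. The other 14 were above it in none, with group means between 2.67 and 6.49. They were ITGA2B (3.53 to 4.43), ITGA7 (3.99 to 4.33), ITGA8 (2.67 to 2.99), ITGA9 (3.23 to 4.17), ITGA11 (3.83 to 6.49), ITGAL (2.81 to 3.16), ITGAM (2.97 to 3.98) and ITGAX (4.39 to 6.30) among the alpha subunits. ITGB2 (2.74 to 3.78), ITGB6 (2.86 to 3.34) and ITGB7 (3.20 to 3.37) were the beta subunits, and LAMA1 (2.70 to 4.13), LAMA4 (4.24 to 4.65) and LAMC3 (3.78 to 4.48) the laminin chains. The leukocyte subunits ITGAL, ITGAM, ITGAX, ITGB2 and ITGB7 were all in this set.

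**Figure D2:**
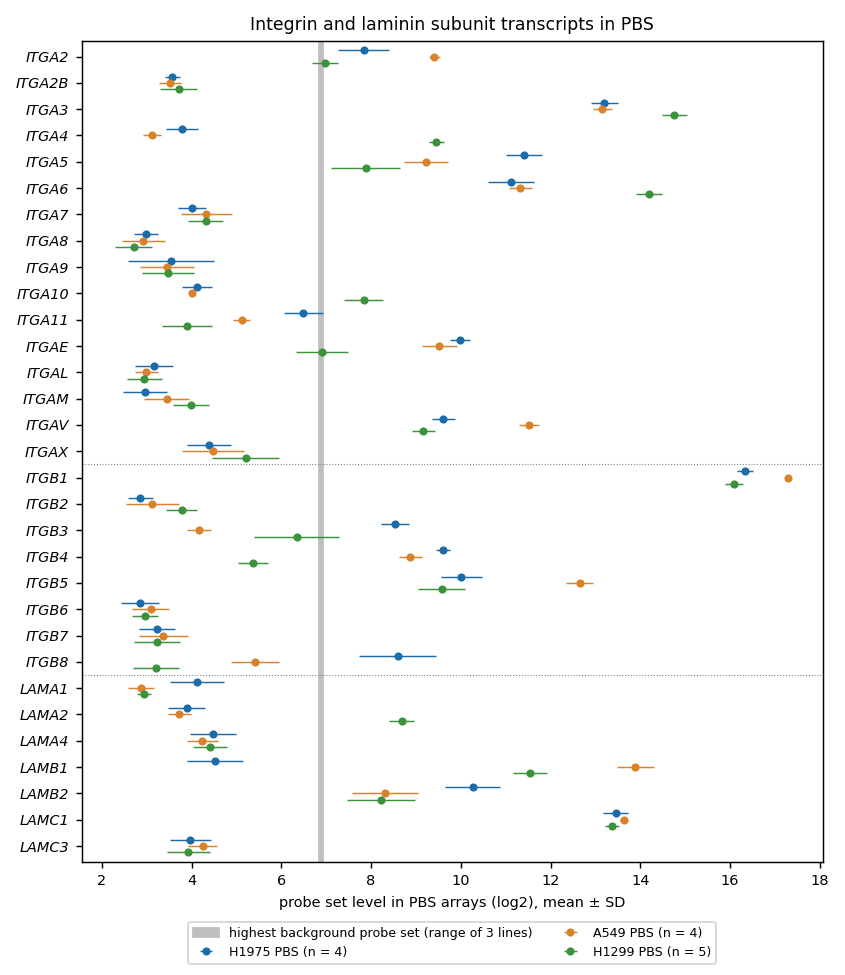
Log2 level of each measured subunit in the PBS arrays of H1975, A549 and H1299 (points, mean; bars, SD; n = 4, 4 and 5), with the range of the highest background probe set over the lines in grey. LAMB1, ITGB4, ITGB3, ITGB8, ITGA4, ITGA10 and LAMA2 lay above the grey band in some lines and below it in others.

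The same PBS arrays enter the 3 comparisons between lines, which are given side by side. In H1975 minus A549, 12 of 31 members were called (38.7%, against 38.3% of all genes), 7 higher (20.3% of all genes) and 5 lower (18.0%). H1975 minus H1299 had 17 (54.8%, against 42.0% of all genes), 9 higher (21.2%) and 8 lower (20.8%). A549 minus H1299 also had 17 (54.8%, against 41.5% of all genes), 10 higher (19.0%) and 7 lower (22.5%). Blocking on the run gave 13, 18 and 17, against 45.1%, 49.0% and 47.3% of all genes. The median difference over the members was 0.04, 0.07 and 0.09, and over all genes it was 0.07, -0.02 and -0.10. For LAMB1 the differences were -9.36 ± 0.37 (adjusted p = 2.06e-18), -7.02 ± 0.35 (adjusted p = 4.47e-16) and 2.34 ± 0.35 (adjusted p = 2.57e-06) in that order. Where the lower line was below background its fold has only a bound, taken from the higher of each array's own value and its highest background set. LAMB1 was thus at least 124-fold lower in H1975 than in A549, and at least 24.4-fold lower in H1975 than in H1299.

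ITGB8 was at least 3.37-fold higher in H1975 than in A549 (3.18 ± 0.36, adjusted p = 1.64e-08). Against H1299 it was at least 3.1-fold higher (5.39 ± 0.34, adjusted p = 6.97e-14). Its difference between A549 and H1299 was also called (2.21 ± 0.34, adjusted p = 3.33e-06), with both means below background. ITGB3 was at least 3.23-fold higher in H1975 than in A549 (4.37 ± 0.47, adjusted p = 6.19e-09) and at least 2.57-fold higher than in H1299 (2.19 ± 0.44, adjusted p = 0.000142). ITGB4 was at least 6.24-fold higher in H1975 than in H1299 (4.24 ± 0.26) and at least 3.77-fold higher in A549 than in H1299 (3.52 ± 0.26). These 3 beta subunits, partners of ITGAV and ITGA6, thus differed between lines by more than the spread of the arrays. ITGB5 was lower in H1975 than in A549 (-2.63 ± 0.30) and higher in A549 than in H1299 (3.07 ± 0.29), and so was ITGAV, its partner (-1.91 ± 0.24 and 2.36 ± 0.23).

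H1299 stood apart by ITGA4, ITGA10 and LAMA2. ITGA4 was lower by 5.66 ± 0.33 in H1975 and by 6.34 ± 0.33 in A549, at least 5.73-fold and 6.11-fold. ITGA10 was lower by 3.72 ± 0.28 and 3.83 ± 0.28, at least 1.86-fold and 1.98-fold, and LAMA2 by 4.79 ± 0.25 and 4.95 ± 0.25, at least 3.34-fold and 3.56-fold. The adjusted p of these 6 differences was at most 3.42e-12. ITGA6 was lower in H1975 by 3.09 and in A549 by 2.88, ITGA3 by 1.56 and 1.60, and ITGA5 was higher by 3.53 and 1.35. ITGAE was also higher, by 3.09 ± 0.33 in H1975 and 2.63 ± 0.33 in A549. LAMB2 was higher in H1975 than in A549 (1.95 ± 0.41) and than in H1299 (2.04 ± 0.39). Of the subunits below background, ITGA11 and LAMA1 were called higher in H1975 than in A549 (1.37 and 1.25) and than in H1299 (2.60 and 1.19). Smaller calls were less stable. ITGB4 in H1975 minus A549 (0.73 ± 0.28, adjusted p = 0.0367) lost its call without H1975 PBS replicate 1, 2 or 3 or A549 PBS replicate 1, 2 or 4, with adjusted p of 0.055 to 0.115. ITGB2 in A549 minus H1299 (-0.65 ± 0.24, adjusted p = 0.0286), below background in both, lost its call without A549 PBS replicate 1, 2 or 3 or H1299 PBS replicate 2 or 3 (0.0591 to 0.142). ITGA2 in H1975 minus H1299 (0.86 ± 0.23, adjusted p = 0.00307) was 0.06, 0.99 and 1.15 in runs 1, 2 and 3.

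With Omomyc, H1975 lost most of its ITGB8 transcript and gained ITGA5. Of the 31 members 5 were called (16.1%, against 11.8% of all genes), 2 higher (5.57% of all genes) and 3 lower (6.28% of all genes). The median change over the members was -0.03, and 0.00 over all genes. A fit that blocked on the run called 7, 3 higher and 4 lower, against 19.2% of all genes, and centring each array on its median called 6, 4 higher and 2 lower, against 14.6% of all genes. By class the 5 calls were 3 of 16 alpha subunits, 1 of 8 beta subunits and 1 of 7 laminin chains.

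ITGB8, the latent TGF-beta receptor subunit, had 5.48, 5.49, 4.78, 5.06 and 5.36 in the Omomyc arrays of H1975. Its PBS arrays had 7.54, 9.03, 9.51 and 8.31. All Omomyc arrays lay below the highest background probe set and all PBS arrays above it, without overlap. The change was -3.36 ± 0.34 (limma adjusted p = 5.15e-08), at least 3.94-fold lower with Omomyc. It was -2.06, -4.34 and -2.95 in runs 1, 2 and 3, and the adjusted p with the run as a block was 2.36e-08. ITGAV, its partner, was at 9.85 ± 0.20 with Omomyc (n = 5) and 9.61 ± 0.25 in PBS (n = 4) and was not called (0.24), so ITGAV-ITGB8 was the pair that dropped below background.

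ITGA5, the alpha subunit of the main fibronectin receptor, had 13.63, 13.43, 13.14, 13.23 and 12.99 in Omomyc arrays of H1975, against 11.44, 11.60, 11.75 and 10.82 in PBS arrays. Every Omomyc array was above every PBS array. It rose by 1.88 ± 0.34 (adjusted p = 0.000254), 3.69-fold, and by 2.10, 1.51 and 2.16 within the 3 runs. Its partner ITGB1 was at 16.51 ± 0.14 with Omomyc and 16.33 ± 0.17 in PBS and was not called.

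The other calls in H1975 were of transcripts below background or of smaller changes. ITGA11, a collagen receptor subunit of fibroblasts, had 5.50, 5.86, 5.27, 5.69 and 4.30 with Omomyc and 5.96, 6.72, 6.93 and 6.34 in PBS. It fell by 1.17 ± 0.31 (adjusted p = 0.0102), with both groups below background, and its change was -0.28, -1.35 and -2.04 in the 3 runs. The fibroblast collagen gene COL1A1 was at 8.30 ± 0.65 with Omomyc and 9.44 ± 1.14 in PBS in this line and was not called (-1.14 ± 0.61, adjusted p = 0.293), and its part in the ITGA11 result was not tested. ITGA2B, the platelet subunit, was likewise below background in both groups, at 4.43 ± 0.46 with Omomyc and 3.57 ± 0.17 in PBS (0.86 ± 0.25, adjusted p = 0.0193). Leaving out PBS replicate 1, PBS replicate 4 or Omomyc replicate 5 ended that call (adjusted p = 0.0502, 0.0593 and 0.0683). LAMC1 had 12.67, 13.01, 12.78, 12.99 and 12.89 with Omomyc and 13.20, 13.54, 13.81 and 13.26 in PBS. The arrays did not overlap, and it fell by 0.58 ± 0.17 (adjusted p = 0.0216), 1.50-fold. The LAMC1 call ended when PBS replicate 2, PBS replicate 3 or Omomyc replicate 1 was left out (adjusted p = 0.0653, 0.104 and 0.0614), and with each array centred on its median (-0.47, adjusted p = 0.159).

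ITGB3 and LAMB1 of H1975 joined the calls with the run as a block. ITGB3 had 9.45, 9.63, 10.32, 10.12 and 8.89 with Omomyc and 8.39, 8.94, 8.59 and 8.22 in PBS, an overlap of 1 Omomyc array. Its change of 1.14 ± 0.44 had an adjusted p of 0.0988, and of 0.00384 with the run as a block. Quantile normalization (adjusted p = 0.00939) and centring (0.00714) also called ITGB3. So did a block on the replicate number (0.0027), which sets same-numbered Omomyc and PBS arrays side by side. In H1975 the same-numbered arrays of replicates 2 and 4 came from different runs, so this block mixed run differences into the pairs. Omomyc replicate 5 had no partner. ITGB3 was not called in run 1 or run 3 alone, each with a single H1975 PBS array, nor with any 1 array left out. LAMB1, below background in both groups, was at 3.49 ± 1.00 with Omomyc and 4.53 ± 0.63 in PBS (-1.04 ± 0.35, adjusted p = 0.0531, and 0.0154 with the run as a block). Within runs it changed by -0.15, -2.23 and -0.05. The collagen and laminin receptor subunits ITGA2 (0.16), ITGA3 (-0.03) and ITGA6 (0.44), and the beta subunits ITGB4 (-0.02) and ITGB5 (-0.43), were not called.

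**Figure D3:**
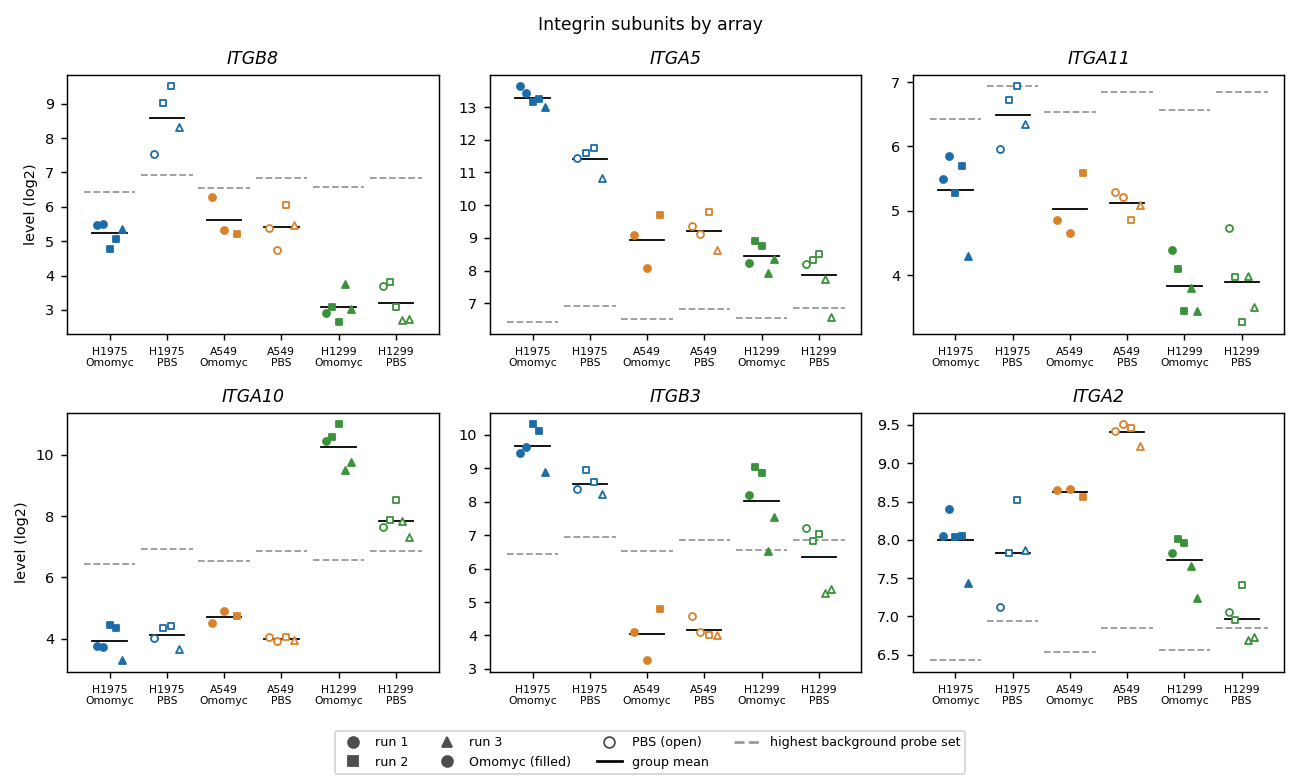
Log2 level of 6 integrin subunits in each array (filled, Omomyc; open, PBS; marker shape, run), with group means as black lines and the highest background probe set of the group as a dashed line. ITGB8 separates the Omomyc and PBS arrays of H1975, and ITGA10 those of H1299.

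In A549, none of the 31 members was called by limma (0%, against 1.19% of all genes, 0.916% higher and 0.277% lower). At an unadjusted p under 0.05 there were 5, namely ITGA2, ITGA2B, ITGA3, ITGA10 and LAMB2, or 5 of 31 members, against 8.72% of all genes. The median change was 0.03, and 0.04 over all genes. With the run as a block 3 were called, against 2.84% of all genes: ITGA2 and ITGA3 lower and LAMB2 higher. The replicate block, which sets same-numbered Omomyc and PBS arrays side by side, called 0 (1.28% of all genes). Both blocks together also called 0 (1.72% of all genes). Same-numbered arrays of A549 shared a run, PBS replicate 4 had no partner, and no label states that they were paired. ITGA2 had 8.65, 8.67 and 8.56 with Omomyc and 9.42, 9.51, 9.46 and 9.23 in PBS. ITGA3 had 12.27, 12.30 and 12.78 with Omomyc and 12.95, 13.29, 13.38 and 13.00 in PBS. Neither gene's arrays overlapped.

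The ITGA2 change in A549 was -0.78 ± 0.27 (adjusted p = 0.22, and 0.0322 with the run as a block), and -0.81 and -0.91 in runs 1 and 2. For ITGA3 it was -0.71 ± 0.23 (adjusted p = 0.162, and 0.0238 with the run as a block), and -0.84 and -0.60 in those runs. LAMB2, the beta chain of muscle and kidney basement membranes, had 9.30, 9.31 and 9.59 with Omomyc and 8.62, 8.33, 9.00 and 7.28 in PBS. Its lowest PBS array was the only A549 array of run 3, and the change was 1.09 ± 0.44 (adjusted p = 0.386, and 0.028 with the run as a block), and 0.83 and 0.59 in runs 1 and 2. The arrays also did not overlap for ITGB1 (16.95 ± 0.08 with Omomyc and 17.28 ± 0.04 in PBS), LAMC1 (13.34 ± 0.04 with Omomyc and 13.63 ± 0.09 in PBS) and ITGA10 (4.71 ± 0.20 with Omomyc and 4.00 ± 0.07 in PBS, both below background). None of ITGB1, LAMC1 and ITGA10 was called. The share of all genes whose arrays did not overlap was not computed. With 3 and 4 arrays such separation can arise by chance. The same 7 receptor pairs were above background in both treatments.

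ITGB8 in A549 was at 5.61 ± 0.60 with Omomyc (n = 3) and 5.42 ± 0.53 in PBS (n = 4), below background. ITGA5 was at 8.95 ± 0.82 with Omomyc and 9.22 ± 0.49 in PBS, and ITGB3 at 4.05 ± 0.77 with Omomyc and 4.17 ± 0.27 in PBS. None of the 3 transcripts was called, and 1 of the 3 Omomyc arrays exceeded its own highest background set for ITGB8. LAMB1, high in this line, was at 14.12 ± 0.20 with Omomyc and 13.89 ± 0.41 in PBS.

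In H1299, Omomyc arrays held more ITGA10, ITGB3 and ITGA2 transcript than PBS arrays. These were the only members called, 3 of 31 (9.68%, against 8.87% of all genes), all higher (4.35% of all genes), and 0 were lower (4.52% of all genes). The median change was 0.01, and 0.00 over all genes. With the run as a block 6 were called, 5 higher and 1 lower, against 15.9% of all genes. The replicate number gave 6 calls as a block, 5 higher and 1 lower, against 12.7% of all genes. Same-numbered arrays of H1299 shared a run too, and no label states that they were paired. Quantile normalization and centring of each array gave the same split, against 13.1% and 11.0% of all genes, so calls over all genes rose as well.

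ITGA10 had 10.46, 10.57, 10.99, 9.50 and 9.75 in Omomyc arrays of H1299. Its PBS arrays had 7.64, 7.86, 8.51, 7.85 and 7.30. All arrays were above background and the groups did not overlap. The rise was 2.42 ± 0.26 (limma adjusted p = 3.51e-07), 5.36-fold, and it was 2.82, 2.60 and 2.05 in runs 1, 2 and 3. Its partner ITGB1 was at 16.00 ± 0.11 with Omomyc and 16.09 ± 0.20 in PBS and was not called.

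ITGB3 had 8.20, 9.05, 8.86, 6.52 and 7.53 with Omomyc, against 7.21, 6.83, 7.03, 5.26 and 5.39 in PBS. The groups overlapped by 1 Omomyc array of run 3, at 6.52. Both run 3 arrays of each treatment were the lowest of their group, and within each run the Omomyc arrays were higher. It rose by 1.69 ± 0.42 (adjusted p = 0.00792), by 0.99, 2.02 and 1.70 in runs 1, 2 and 3, and by at least 1.81-fold with the PBS mean below background. ITGAV, at 9.26 ± 0.58 with Omomyc and 9.16 ± 0.26 in PBS, was not called, and ITGAV-ITGB3 was the pair that joined those above background.

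ITGA2 had 7.82, 8.01, 7.96, 7.65 and 7.24 with Omomyc, against 7.06, 6.95, 7.42, 6.69 and 6.73 in PBS. The groups overlapped by 1 array of each. It rose by 0.77 ± 0.22 (adjusted p = 0.0244), 1.70-fold. Leaving out PBS replicate 4 or 5, or Omomyc replicate 1, 2 or 3, ended this call (adjusted p between 0.0552 and 0.0692). The change was close to this size in each run, at 0.76, 0.80 and 0.73.

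The 3 members that joined with the run as a block were ITGA6, ITGAX and ITGB5. ITGA6 had 13.48, 14.02, 13.81, 13.08 and 13.02 with Omomyc and 14.41, 14.32, 14.42, 14.09 and 13.75 in PBS, with a change of -0.72 ± 0.23 (adjusted p = 0.0507, 0.00171 with the run as a block and 0.0149 with the replicate block). ITGB5 was at 10.27 ± 0.44 with Omomyc and 9.58 ± 0.52 in PBS (0.70 ± 0.27, adjusted p = 0.119, 0.00245 and 0.00812). ITGAX, a leukocyte subunit below background in both groups, was at 6.30 ± 0.72 with Omomyc and 5.21 ± 0.75 in PBS (1.09 ± 0.40, adjusted p = 0.0944, 0.00129 and 0.00544). No laminin chain was called in H1299. LAMA2 was at 8.43 ± 0.52 with Omomyc and 8.68 ± 0.27 in PBS, LAMB1 at 11.58 ± 0.21 with Omomyc and 11.55 ± 0.38 in PBS, and both trimers with LAMA2 stayed above background. ITGB8 was at 3.08 ± 0.41 with Omomyc and 3.21 ± 0.52 in PBS, below background.

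**Figure D4:**
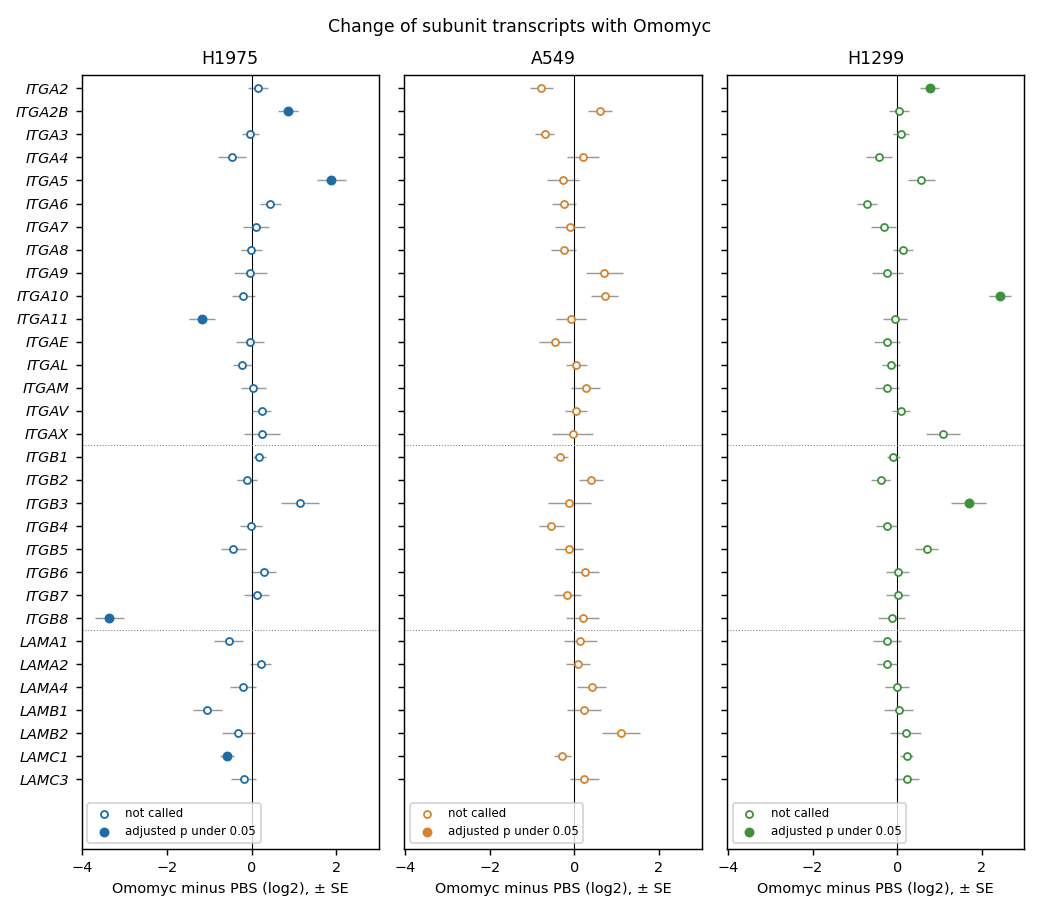
Change of each measured subunit (log2, Omomyc minus PBS; bars, SE of the limma fit) in H1975, A549 and H1299. Filled points had an adjusted p under 0.05, 5 in H1975, 0 in A549 and 3 in H1299.

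The differences between the responses of the lines were tested directly. A moderated F test over the 3 responses called 4 of 31 members, against 8.18% of all genes: ITGB8 (adjusted p = 1.12e-05), ITGA10 (9.18e-05), ITGA2 (0.0123) and ITGA5 (0.0164). With the run as a block 11 were called, against 17.4% of all genes, and with the replicate block 7, against 10.9% of all genes. The fall of ITGB8 in H1975 differed from the response of A549 by -3.56 ± 0.51 (adjusted p = 6.1e-05) and from that of H1299 by -3.24 ± 0.47 (adjusted p = 2.9e-05). The PBS levels of ITGB8 in those lines were below background already, so a fall there could not be read.

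The rise of ITGA10 in H1299 exceeded the response of H1975, which differed by -2.62 ± 0.38 (adjusted p = 3.7e-05), and that of A549, which differed by -1.71 ± 0.41 (adjusted p = 0.0219). ITGA10 was below background in both treatments of H1975 and A549, so a change there could not be read and the sizes of these differences are uncertain. The response of ITGA5 differed between H1975 and A549 by 2.16 ± 0.51 (adjusted p = 0.0109). ITGA2 moved apart in A549 and H1299, by -1.55 ± 0.34 (adjusted p = 0.0121), with changes of -0.78 in A549 and 0.77 in H1299. Between H1975 and H1299 the responses of ITGA6 (1.16 ± 0.34, adjusted p = 0.0378) and LAMC1 (-0.80 ± 0.23, adjusted p = 0.0369) also differed. The pairwise tests called 2, 4 and 2 members for H1975 against A549, H1975 against H1299 and A549 against H1299, against 4.62% (1.92% higher, 2.7% lower), 5.7% (2.61% and 3.09%) and 2.47% (1.4% and 1.07%) of all genes. With the run as a block each called 6, against 10.3%, 11.7% and 6.41% of all genes. ITGB3 changed by 1.14 in H1975, -0.12 in A549 and 1.69 in H1299, and its F test was not called (adjusted p = 0.196, and 0.00249 with the run as a block).

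**Figure D5:**
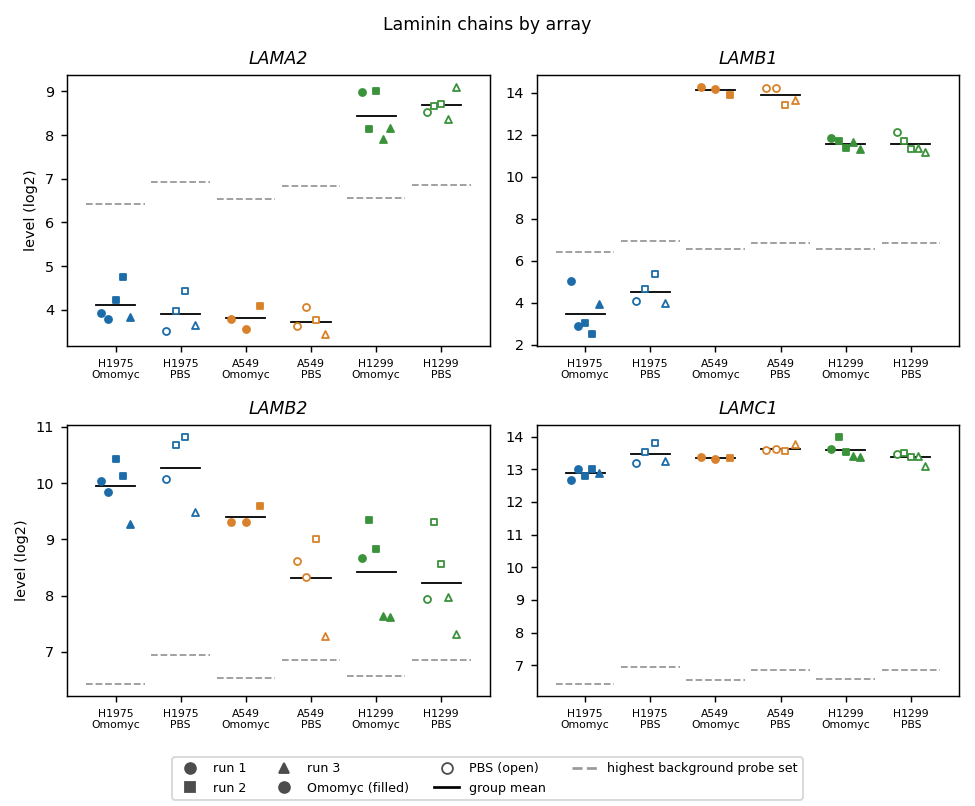
Log2 level of 4 laminin chains in each array (filled, Omomyc; open, PBS; marker shape, run), with group means as black lines and the highest background probe set as a dashed line. LAMB1 and LAMA2 separate the lines, and LAMB2 in A549 is higher in the 3 Omomyc arrays than in the 4 PBS arrays.

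Integrins act through adaptor proteins that link their tails to actin, and 33 of 40 listed adaptor and signalling genes were measured. This list and that of ligands below were chosen with earlier results of these data known, so their shares called are descriptions and no test. With 1 array left out at a time, the adaptor calls numbered 4 to 5 in H1975, 0 to 3 in A549 and 4 to 7 in H1299. In H1975 2 were higher and 3 lower (15.2% called, against 11.8% of all genes, median change 0.11). FERMT1, which encodes the integrin activator kindlin-1, fell by 1.38 ± 0.21 (adjusted p = 2.73e-05), and the focal adhesion gene TNS3 fell by 1.23 ± 0.22 (0.000325). The kinase gene SRC rose by 0.80 ± 0.20 (0.00662), and FHL2 rose by 0.81 ± 0.22 (0.0139), a call lost without PBS replicate 4 (adjusted p = 0.057). In A549 0 were higher and 3 lower (9.09% called, against 1.19% of all genes, median change -0.11), TNS4 by -1.37 ± 0.26 (0.00379), PXN, the paxillin gene, by -0.94 ± 0.24 (0.0446), and FHL2 by -0.98 ± 0.25 (0.0487). TNS4 lost its call without Omomyc replicate 1 (0.0537) and PXN with the replicate block (0.118). Leaving out any 1 of 16 arrays, A549 Omomyc replicates 1 and 2 and all 4 A549 PBS replicates among them, ended the PXN call (0.0508 to 0.307), and any 1 of 23 arrays, all 7 of A549 among them, ended that of FHL2 (0.0513 to 0.277). In H1299 4 were higher and 2 lower (18.2% called, against 8.87% of all genes, median change 0.10). TES, a focal adhesion protein gene, fell by 2.14 ± 0.25 (adjusted p = 1.01e-06). The tetraspanin gene CD9 rose by 1.06 ± 0.24 (0.00405), TGFB1I1 by 1.14 ± 0.29 (0.00933), and SRC by 0.71 ± 0.19 (0.0127), lost without Omomyc replicate 1 (adjusted p = 0.054).

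Among the listed ligands and matrix partners, 38 of 41 were measured. With 1 array left out at a time, their calls numbered 4 to 6 in H1975, 0 to 1 in A549 and 5 to 8 in H1299. In H1975 4 were higher and 2 lower (15.8% called, against 11.8% of all genes, median change -0.06). CCN1, a matrix protein gene whose product binds ITGAV-ITGB3, was at 13.12 with Omomyc and 11.51 in PBS. It rose by 1.61 ± 0.28 (adjusted p = 0.000198), and ICAM1, whose product is a counter-receptor of leukocyte integrins, by 1.46 ± 0.33 (0.00264). TGFB3, whose latent form ITGAV-ITGB8 binds, had a change of -1.59 ± 0.37 (0.00349), and ICAM2 one of 1.02 ± 0.28 (0.0155), both below background in both groups. ICAM2 lost its call without PBS replicate 2 (adjusted p = 0.0524) or 4 (0.0922). In A549 limma called 0, against 1.19% of all genes, and 3 had an unadjusted p under 0.05, against 8.72% of all genes. In H1299 4 were higher and 3 lower (18.4% called, against 8.87% of all genes, median change 0.01). SPP1, the osteopontin gene and a ligand of ITGAV-ITGB3, was at 4.60 with Omomyc, below background, and at 8.31 in PBS. Its fitted change was -3.72 ± 0.33 (adjusted p = 1.57e-08), and it was at least 3.03-fold lower with Omomyc. CCN1, at 12.33 with Omomyc and 14.05 in PBS, fell by 1.72 ± 0.27 (6.59e-05) and CCN2 by 2.34 ± 0.39 (0.000189), while LTBP1, of the latent TGF-beta binding proteins, rose by 1.02 ± 0.19 (0.000661). The response of CCN1 differed between H1975 and H1299 by 3.33 ± 0.39 (adjusted p = 1.12e-06).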

How the data were processed

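Single-colour biotin arrays with transcript cluster probe sets measured RNA of 26 samples. The deposited log2 values of 24351 features came from RMA and Partek, per the submitters' processing notes, which give no versions. Their range, 1.35 to 19.91, is wide for RMA. Array means were 7.084 to 7.121 in run 1, 7.3 to 7.359 in run 2 and 6.942 to 6.993 in run 3. The deposited values thus did not share 1 distribution over all arrays, and the steps of normalization are unknown. Symbols were taken from the platform annotation, 17709 features having 1 symbol, 0 several and 6642 none. Of the 20 genes with more than 1 probe set, the set with the highest mean was kept. Arrays carry no read depth, so their number limits the precision.

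Groups came from the labels, which call the arrays biological replicas. Separate cultures are not stated otherwise, and p-values cover only the spread between arrays, which may be technical. A group-means model was fitted to all arrays with limma 3.58.1 (R 4.3.3, 20 residual degrees of freedom) and tested on simulated data. Tables and plots used Python 3.11.15, pandas 2.3.3, scipy 1.17.1 and matplotlib 3.10.9. Runs are 3 clusters of the arrays by their sorted values. Same-numbered Omomyc and PBS arrays deviated together in A549 (r of 0.109 to 0.196) and H1299 (0.259 to 0.389), each pair over 0.1, but not in H1975 (-0.196 to 0.331). The H1975 arrays of replicates 2 and 4 came from different runs (r of -0.151 and -0.196). With the run removed no pair was over 0.1, the highest being 0.085.

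All measured members are named, and of the adaptor and ligand lists at most 4 called genes per line, by smallest p. Members and lists were chosen with earlier results of these data known. Alternatives changed the normalization, probe rule, filter, limma settings, blocks, threshold and arrays used.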

Additional observations from a re-analysis of the deposited data

Results flagged for a closer look

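ITGA4 stood at 4.50 in H1975 Omomyc replicate 5, a run 3 array, against 2.97 to 3.19 in the other 4 Omomyc arrays of that line, all below background. ITGB3 stood at 4.58 in A549 PBS replicate 1, a run 1 array, against 4.00 to 4.09 in the other 3 PBS arrays of that line, also below background. These were the 2 single arrays far from the rest of their group among 155 combinations of member and group. Chance gives about 1 in 20, so they were fewer than chance alone would flag.

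The response to Omomyc differed between the 3 lines by limma's moderated F test for 4 members. For ITGB8 (adjusted p = 1.12e-05) the change was -3.36 in H1975, 0.20 in A549 and -0.13 in H1299. Its means were below background in both treatments of A549 and H1299, so a fall there could not be read. For ITGA10 (adjusted p = 9.18e-05) the change was -0.19, 0.71 and 2.42 in the same lines. Both treatments of H1975 and A549 were below background for ITGA10, so the sizes of these differences are uncertain. For ITGA2 (adjusted p = 0.0123) the change was 0.16, -0.78 and 0.77, and for ITGA5 (adjusted p = 0.0164) it was 1.88, -0.27 and 0.57.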

How the results depend on the processing

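The falls and rises of ITGB8 and ITGA5 in H1975 and of ITGA10 in H1299 kept their direction and call in all 39 alternatives run for each, with changes of -4.34 to -2.06, 1.51 to 2.16 and 2.05 to 2.82. Many of these alternatives could not move the change itself. Each member had 1 probe set, and arrays of the other lines entered only the shared estimate of the spread. Of the 8 called responses 5 lost their call under some alternative, and of the 46 called differences between lines 12 did. In H1975 the 5 calls became 3 with the replicate block and the run as a block (ITGA11, ITGA2B and LAMC1 then had adjusted p of 0.0733, 0.165 and 0.0708), 2 in run 1 alone and 2 at an adjusted p under 0.01, and 7 with the replicate block. In A549 the 0 calls became 2 with quantile normalization and 3 with the run as a block, and stayed 0 with the replicate block, alone or with the run. In H1299 the 3 calls became 6 with quantile normalization, with centring on the median, with the run as a block, with the replicate block and with both blocks, and 1 in run 1 alone. The 4 differences between responses became 8 with quantile normalization, 7 with centring, 11 with the run as a block, 7 with the replicate block, 1 in run 1 alone and 2 at an adjusted p under 0.01. They could not be fitted in run 3 alone, which has no A549 Omomyc array. The causes were not tested. Leaving out 1 array at a time gave 4 to 5 calls in H1975, 0 in A549, 2 to 4 in H1299 and 4 to 5 differences between responses. Between lines it gave 11 to 13 for H1975 minus A549, 17 for H1975 minus H1299 and 16 to 17 for A549 minus H1299, and receptor pairs numbered 9 in H1975, 7 in A549 and 7 to 8 in H1299. Signs turned for ITGB2 in A549 minus H1299 in run 3 alone (0.55, adjusted p = 0.189) and for ICAM2 in H1975 in run 1 alone (-0.073), both below background. In run 1 alone, with a single PBS array for either line, ITGA11 in H1975 changed by -0.28 and ITGB3 in H1299 by 0.99. Neither was called there. Call counts in 1 run rest on these few arrays. The replicate block of H1975 set arrays of different runs side by side for replicates 2 and 4. Centring arrays on their medians moved the change of all genes in H1975 up by 0.112 (log2, Omomyc minus PBS), so the median change there became 0.115. Values near the background limit, which is close to the median of all genes, bound how far dim members can be read.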
